A study of Mus musculus with 24 samples.

Results

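Expression of 10 genes that respond to temperature or regulate splicing (Cirbp, Rbm3, Srsf2, Srsf3, Srsf5, Srsf7, Clk1, Clk4, Tra2a and Hnrnpdl) was followed in TM3 cells, a mouse Leydig cell line, after sham treatment or exposure to a nanosecond pulsed electric field (nsPEF). These genes were picked by symbol, and every array probe whose RefSeq transcript belongs to a member was used. All 10 genes were found, with 19 probes, among 23787 genes with a probe, of which 16842 genes entered the test. In the nsPEF groups cells in electroporation cuvettes received 80 pulses, each 60 ns wide, with an amplitude of 5.5 kV and a field of 14 kV/cm, at 26.4 pulses per min over 180 s. Sham-treated cells were handled alike without pulses. RNA was collected at 0, 4 and 24 h, which gave the groups S0, E0, S4, E4, S24 and E24 (S for sham, E for nsPEF), with 4 replicates each (biological per the study's methods, while the labels give only numbers) and 24 single-colour Agilent arrays in all. Cells of all 6 groups were grown at 37 °C, detached, washed in saline, suspended and strained, and then treated in cuvettes at room temperature. The paper describes the hours after treatment as standard culture and the harvest at 4 and 24 h as quick. The 0 h cells came straight from the long preparation, so the time points differ in handling as well as in hours. There was no group of cells left undisturbed in culture, so the 0 h groups are no measure of an undisturbed culture.

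Cirbp and Rbm3 are small glycine-rich proteins with an RNA recognition motif. In mammalian cells their transcripts are known to rise with mild cooling and, for Cirbp, to fall again when cells are warmed. SR proteins (Srsf2, Srsf3, Srsf5 and Srsf7) and the SR-like Tra2a bind exonic enhancers and help the spliceosome choose exons, while the kinases Clk1 and Clk4 phosphorylate their arginine and serine-rich tails. Hnrnpdl is an hnRNP protein that binds AU-rich and nuclear RNA. Many of these genes control their own transcripts through exons or retained introns that keep the RNA from being translated, and Clk1 activity is known to change with body temperature.

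Promoter sequences are shown for 4 of the genes, those in which a motif marked below in capitals was found. The choice was thus made by motif and not by the size of the expression change. Srsf2, which rose more at 4 h than Srsf7, Tra2a and Clk4, held neither motif and is not shown. The sequences are RefSeq sequences on the mouse build GRCm38.p6, 250 bases before the annotated start, 5′ to 3′ on the gene's strand. In the first pair the capitals mark TCCCCGCC, known as the mild cold responsive element and first described in the Cirbp gene. In the second pair the capitals mark TGACGTCA, the cAMP response element.
Cirbp, chr10:80167589-80167838, plus strand: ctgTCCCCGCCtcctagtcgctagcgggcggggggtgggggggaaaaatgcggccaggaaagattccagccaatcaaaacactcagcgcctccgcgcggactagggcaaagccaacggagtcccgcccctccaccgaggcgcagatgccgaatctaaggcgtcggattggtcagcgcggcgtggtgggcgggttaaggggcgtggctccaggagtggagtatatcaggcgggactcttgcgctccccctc
Srsf7, chr17:80207306-80207555, minus strand: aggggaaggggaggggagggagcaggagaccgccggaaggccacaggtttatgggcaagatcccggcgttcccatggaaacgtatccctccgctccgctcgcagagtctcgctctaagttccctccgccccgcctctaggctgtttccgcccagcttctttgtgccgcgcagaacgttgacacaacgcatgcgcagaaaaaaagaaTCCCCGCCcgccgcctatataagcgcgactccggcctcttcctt
Tra2a, chr6:49264053-49264302, minus strand: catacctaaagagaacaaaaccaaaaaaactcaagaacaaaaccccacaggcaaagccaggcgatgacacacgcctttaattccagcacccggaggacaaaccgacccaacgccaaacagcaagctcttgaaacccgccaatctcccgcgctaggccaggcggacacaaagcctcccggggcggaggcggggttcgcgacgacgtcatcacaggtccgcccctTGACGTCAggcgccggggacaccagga
Clk4, chr11:51262864-51263113, plus strand: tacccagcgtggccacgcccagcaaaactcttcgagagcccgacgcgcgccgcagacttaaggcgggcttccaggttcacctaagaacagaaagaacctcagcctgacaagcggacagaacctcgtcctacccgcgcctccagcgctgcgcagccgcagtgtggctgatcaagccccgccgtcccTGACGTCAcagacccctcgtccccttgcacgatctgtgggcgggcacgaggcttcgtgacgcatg

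The promoter table held 8 of the 10 genes, with 9 promoters since Cirbp has 2 annotated starts, and none for Rbm3 and Clk1. The letters TCCCCGCC, searched on both strands from 250 bases before to 50 bases after the start, were found in 2 of the 9 promoters, 247 bases before the first Cirbp start and 44 bases before that of Srsf7. Of all 32851 promoters in the table, 5.38% held them. In Srsf7 this match overlaps a GC box on the other strand. TGACGTCA was also found in 2 of the 9, 27 bases before the Tra2a start and 65 bases before that of Clk4, and in 1.79% of all promoters. The GC box GGGCGG was found in 8 of the 9 promoters (35.7% of all), the letters TATAAA in those of Srsf2 and Srsf3 (13.6% of all) and the heat shock element GAANNTTC in 0 (7.86% of all). These matches are descriptions of letters and no measure of binding.

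Values are log2 signals minus the 75th percentile of the array, so a value of 0 is the level below which 75% of that array's probes lie, and a difference of 1 is a doubling. Each gene is described by its leading probe, the one with the highest mean over all arrays, and other probes are given where they differ. A change was called where the adjusted p of limma was under 0.05 after Benjamini-Hochberg correction over all tested probes. All leading probes were called well above background on 24 of 24 arrays. The 75th percentile of intensity was between 202 and 359 on 23 arrays, while that of S4 replicate 4 was 533, so the 4 h values and counts in sham are also given without it. Between 57.5% and 62.1% of probes were well above background on sham arrays and between 51.2% and 57.2% on nsPEF arrays. The 8 arrays of a time point lay on 1 slide, and sham and nsPEF arrays lay in different rows of each slide, so time and slide, and treatment and place, cannot be told apart. Of 8 Leydig cell markers on the array, Star (mean log2 value -3.00), Cyp17a1 (1.83) and Nr5a1 (-2.04) were above background on all arrays, so Star and Nr5a1 were dim. Cyp11a1, Hsd3b6, Hsd17b3 and Lhcgr were above background on 0 arrays. Of the markers of other cells, 3 of 6 for Sertoli cells (Sox9 -1.47, Gata4 -2.86, Rhox5 -1.87), 1 of 5 for germ cells (Tnp1 -2.79), 2 of 4 for peritubular myoid cells (Acta2 5.20, Cnn1 -1.60), 2 of 4 for macrophages (Cd68 0.10, Csf1r 0.77) and 1 of 4 for endothelial cells (Pecam1 -2.91) were above background on all arrays, while the macrophage markers Adgre1 and Ptprc were so on 1 array each. In a whole culture, fewer cells that hold a transcript and less of it per cell cannot be told apart.

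Cirbp was the member with the largest change. In sham-treated cells its log2 signal was 3.56, 3.53, 3.58 and 3.51 in S0, then 1.87, 1.80, 1.83 and 1.89 in S4, and 2.96, 2.99, 3.02 and 3.05 in S24. In nsPEF-exposed cells it was 3.52, 3.59, 3.45 and 3.51 in E0, then 1.84, 1.86, 2.00 and 1.88 in E4, and 3.01, 3.15, 3.13 and 3.06 in E24. No 2 time points overlapped within a treatment. At 4 h the transcript was 3.25-fold lower than at 0 h in sham (log2 difference -1.70, SE 0.045, adjusted p = 4.96e-17) and 3.08-fold lower in nsPEF (-1.62, SE 0.045, adjusted p = 8.02e-17). Of all tested genes, 534 had a lower difference than Cirbp in sham and 16307 a higher one. From 4 to 24 h it rose 2.24-fold in sham (adjusted p = 2.51e-14) and 2.29-fold in nsPEF (adjusted p = 1.75e-14). At 24 h it was still below 0 h, by 0.54 in sham (adjusted p = 1.45e-08) and by 0.43 in nsPEF (adjusted p = 2.83e-07), on the percentile scale.

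The last of these calls depends on the scaling. With spike-in RNA as the reference, the median of all genes was itself 0.67 higher at 24 h than at 0 h in sham and 0.50 higher in nsPEF, and Cirbp turned to 0.16 (adjusted p = 0.040) and 0.03 (adjusted p = 0.69). Relative to the median of all genes, Cirbp was 0.52 lower at 24 h in sham. Both scales subtract a constant per array, so this value is the same on both by construction and is no second test. The fall at 4 h was -1.66 in sham and -1.56 in nsPEF with spike-in scaling.

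**Figure D1:**
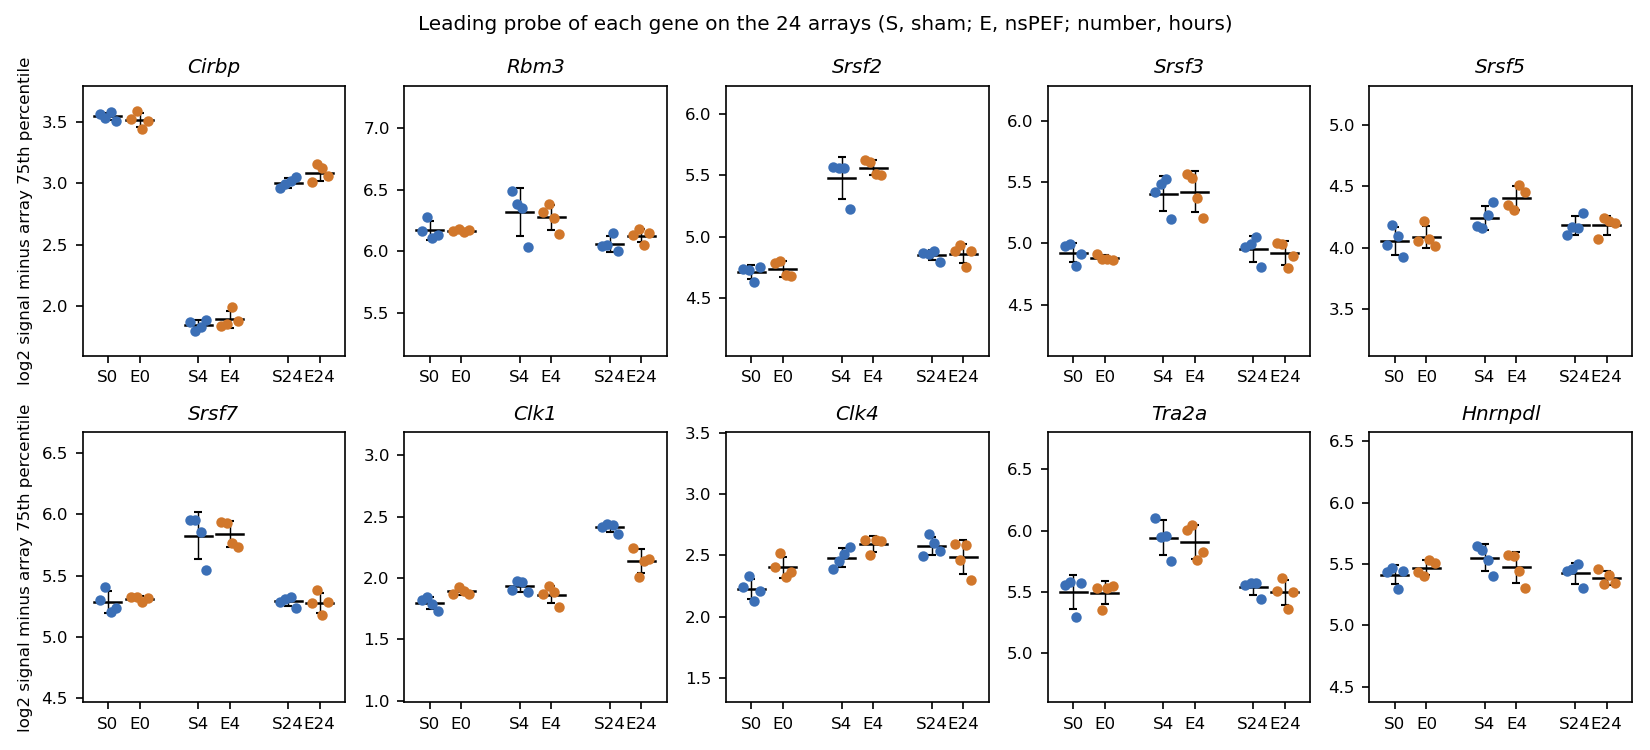
Log2 signal minus the array's 75th percentile (y axis, a span of 2.2 in every panel) of the leading probe of each gene on the 24 arrays, by group (x axis; S, sham; E, nsPEF; number, hours). Points are arrays, bars are group means with the SD (n = 4). Cirbp drops at 4 h and comes back in part by 24 h, Srsf2, Srsf3, Srsf7 and Tra2a peak at 4 h, and Clk1 is highest in S24. The order of 24 h against the earlier times changes for Cirbp and several other genes when spike-in RNA is the reference.

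The other probes of Cirbp showed a fall of different size. Probe A_55_P2506450, for the same transcript as the leading probe, was 1.59 lower at 4 h than at 0 h in sham (SE 0.31, adjusted p = 1.70e-04). In E4 this dim probe read -2.41, -2.30, -0.20 and -2.27, so that replicate 3 stood apart (SD 1.07) and E0 and E4 overlapped, and the fall in nsPEF was 1.08 (adjusted p = 5.00e-03). Probe A_55_P1985001, which the array assigns to a non-coding Cirbp transcript, fell by 0.43 in sham (adjusted p = 1.88e-03), and in nsPEF its difference of -0.21 was not called (adjusted p = 0.11). At 24 h this probe stood 0.18 above 0 h in sham (adjusted p = 0.20) and 0.23 above it in nsPEF (adjusted p = 0.092), neither of them called. The 3 probes thus gave the same direction at 4 h and differed in how far the signal went and whether it stayed below 0 h.

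Rbm3, the second cold-inducible gene, did not share this course. Its leading probe, A_51_P262340, read 6.17, 6.28, 6.10 and 6.13 in S0, then 6.49, 6.38, 6.35 and 6.04 in S4, and 6.04, 6.05, 6.15 and 6.00 in S24. In nsPEF it read 6.16, 6.18, 6.16 and 6.17 in E0, then 6.32, 6.38, 6.27 and 6.14 in E4, and 6.13, 6.18, 6.05 and 6.15 in E24. The S0 and S4 values overlapped through S4 replicate 4. At 4 h the difference was 0.15 in sham (95% interval -0.01 to 0.30, adjusted p = 0.10) and 0.11 in nsPEF (-0.05 to 0.27, adjusted p = 0.21), so both intervals lay above the fall of Cirbp. Without S4 replicate 4 the sham difference was 0.24 and was called (adjusted p = 1.75e-03). With all arrays kept, it was also called with quantile normalization, normexp background or array weights. Between 4 and 24 h Rbm3 fell by 0.26 in sham (adjusted p = 5.85e-03), a direction that turned to 0.40 with spike-in scaling (adjusted p = 1.68e-03). The S4 and S24 values overlapped, and the call was also lost with quantile normalization (-0.083, adjusted p = 0.15), with the percentile over probes detected on all arrays (-0.092, adjusted p = 0.22), with the mean of the Rbm3 probes, and without replicate 1 or replicate 2 of all groups.

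Of the other Rbm3 probes, A_55_P2901762 was 0.22 higher at 4 h in sham (adjusted p = 0.010) and 0.34 higher in nsPEF (adjusted p = 2.31e-04). A_55_P2117525 gave 0.15 in sham (adjusted p = 0.075) and 0.32 in nsPEF (adjusted p = 4.43e-04). None of the bright probes of Rbm3 therefore fell at 4 h, and those for a shared transcript rose in nsPEF. A dim probe for another Rbm3 transcript, A_55_P2766239, was well above background on 22 arrays, and its spot was marked by the scanner software and dropped on E0 replicate 2 and E24 replicate 1. It read -3.26, -3.05, -3.33 and -3.33 in S0 and -1.55, -1.64, -1.73 and -1.44 in S4. That is a rise of 1.65 in sham (SE 0.20, adjusted p = 8.25e-07), and in nsPEF the rise was 1.02 (adjusted p = 4.56e-04) with 3 arrays in E0. Its intensities were between 25.3 and 196. The probe was singled out after its values were seen.

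**Figure D2:**
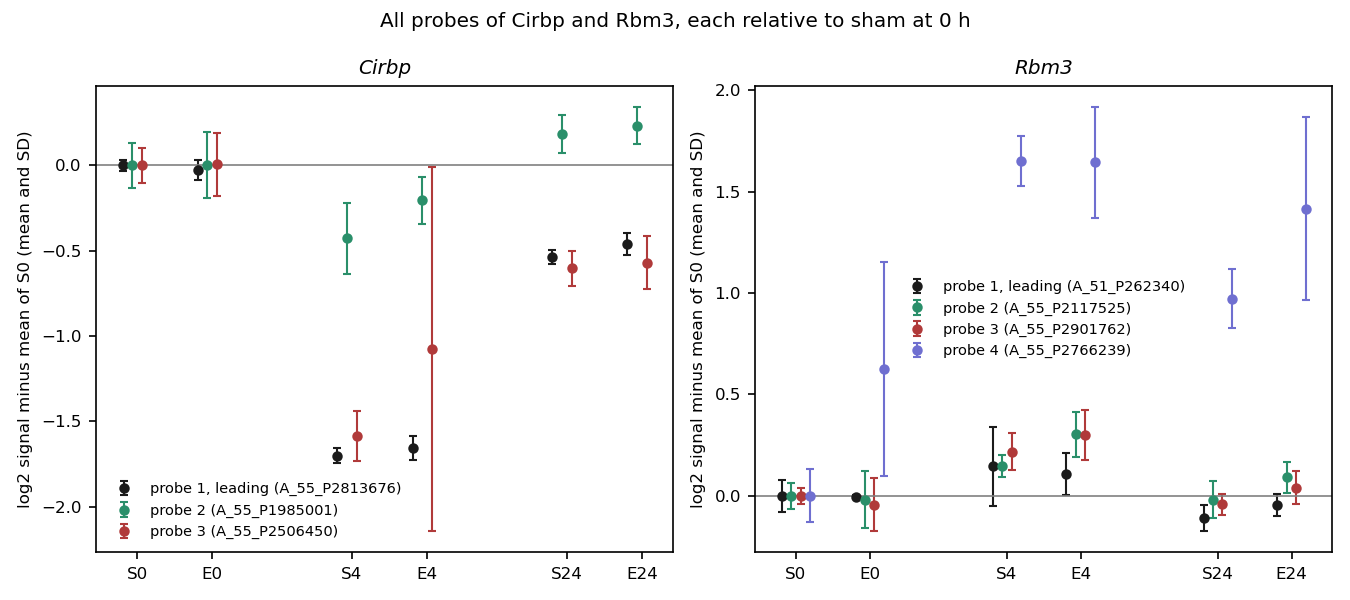
Log2 signal of every probe of Cirbp (left, 3 probes) and Rbm3 (right, 4 probes) minus that probe's own mean in S0 (y axis) by group (x axis). Points are group means and bars the SD (n = 4, and n = 3 for probe 4 of Rbm3 in E0 and E24). All Cirbp probes lie below 0 at 4 h, by -1.70 for the leading probe and -0.43 for the second in sham, and the dim Rbm3 probe 4 is 1.65 above 0 in S4 while the leading one is 0.15 above.

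The SR protein genes moved the other way at 4 h. Srsf2 read 4.74, 4.73, 4.63 and 4.76 in S0, 5.57, 5.56, 5.56 and 5.23 in S4, and 4.86, 4.86, 4.88 and 4.79 in S24. In nsPEF it read 4.78, 4.80, 4.69 and 4.68 in E0, 5.62, 5.61, 5.52 and 5.51 in E4, and 4.88, 4.93, 4.76 and 4.88 in E24. All 4 h arrays lay above all arrays of the other times. The rise at 4 h was 1.70-fold in sham (log2 difference 0.77, SE 0.066, adjusted p = 2.93e-09) and 1.77-fold in nsPEF (0.83, SE 0.066, adjusted p = 8.64e-10). S4 replicate 4 was 0.25 below the mean of its group, and without it the sham rise was 0.85 (adjusted p = 2.38e-11).

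Srsf7 ranged from 5.20 to 5.41 in S0 and from 5.54 to 5.95 in S4, a rise of 0.54 in sham (adjusted p = 3.86e-06) and of 0.53 in nsPEF (adjusted p = 4.96e-06). Srsf3, the smallest SR protein, ranged from 4.82 to 4.99 in S0 and from 5.20 to 5.52 in S4, and rose by 0.48 in sham (adjusted p = 3.46e-05) and 0.54 in nsPEF (adjusted p = 8.16e-06). For both genes the S0 and S4 values did not overlap. The second Srsf3 probe rose by 0.59 in sham (adjusted p = 5.73e-08) and by 0.69 in nsPEF (adjusted p = 6.36e-09). Tra2a, which promotes exon inclusion at GAA-rich enhancers, ranged from 5.30 to 5.58 in S0 and from 5.75 to 6.10 in S4. Its rise was 0.44 in sham (adjusted p = 1.32e-04) and 0.42 in nsPEF (adjusted p = 2.21e-04), again without overlap between the times. Without S4 replicate 4, which was the lowest of its group for these genes too, the sham rises were 0.63 for Srsf7, 0.55 for Srsf3 and 0.50 for Tra2a, and the adjusted p was at most 4.07e-05.

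Srsf5 changed less. Its leading probe ranged from 3.92 to 4.19 in S0 and from 4.16 to 4.37 in S4, so the groups overlapped, and the rise of 0.19 in sham was called (adjusted p = 0.023), as was that of 0.32 in nsPEF (adjusted p = 4.59e-04). The sham call was lost without S0 replicate 1, S0 replicate 4, S4 replicate 3 or S4 replicate 4 (0.14 without the last, adjusted p = 0.087), with quantile normalization, with the percentile over probes detected on all arrays and with centring by array row and signal. The second Srsf5 probe gave 0.11 in sham (adjusted p = 0.15) and rose by 0.17 in nsPEF (adjusted p = 0.030).

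On the percentile scale, from 4 to 24 h Srsf2 fell by 0.63 in sham and 0.70 in nsPEF, Srsf7 by 0.54 and 0.56, Srsf3 by 0.45 and 0.50, and Tra2a by 0.40 and 0.41. The largest adjusted p among these 8 falls was 3.37e-04 (Tra2a in sham). With spike-in scaling the sham differences turned to 0.02 for Srsf2 (adjusted p = 0.84), 0.12 for Srsf7 (adjusted p = 0.31) and 0.20 for Srsf3 (adjusted p = 0.093), none of them called. Tra2a turned to 0.25 in sham, which was called as a rise. On that scale in nsPEF the fall of Srsf2 (-0.31, adjusted p = 5.89e-03) was called and those of Srsf7 (-0.17, adjusted p = 0.16), Srsf3 (-0.10, adjusted p = 0.41) and Tra2a (-0.020, adjusted p = 0.88) were not. Against 0 h, the differences of these 4 genes at 24 h on the percentile scale lay between 0.00 (Srsf7) and 0.13 (Srsf2) in sham, and none was called on that scale (adjusted p from 0.12 to 0.99). For Srsf2 the S0 and S24 arrays did not overlap, and the difference was called under 6 of 13 other settings. It was also called without S4 replicate 4 (adjusted p = 0.028), an array that enters only the estimate of spread. With spike-in scaling all 4 genes were called, at 0.70 (Srsf7) to 0.83 (Srsf2), where the median of all genes was 0.67.

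Hnrnpdl ranged from 5.30 to 5.47 in S0 and from 5.40 to 5.65 in S4. Its difference at 4 h was 0.14 in sham (95% interval -0.00071 to 0.28, adjusted p = 0.081) and 0.00 in nsPEF (-0.14 to 0.14, adjusted p = 0.98), and neither was called. Without S4 replicate 4, the sham difference was 0.19 and was called (adjusted p = 0.023). With all arrays kept, it was also called with normexp background or array weights. With quantile normalization the nsPEF difference was -0.15 (adjusted p = 0.049).

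**Figure D3:**
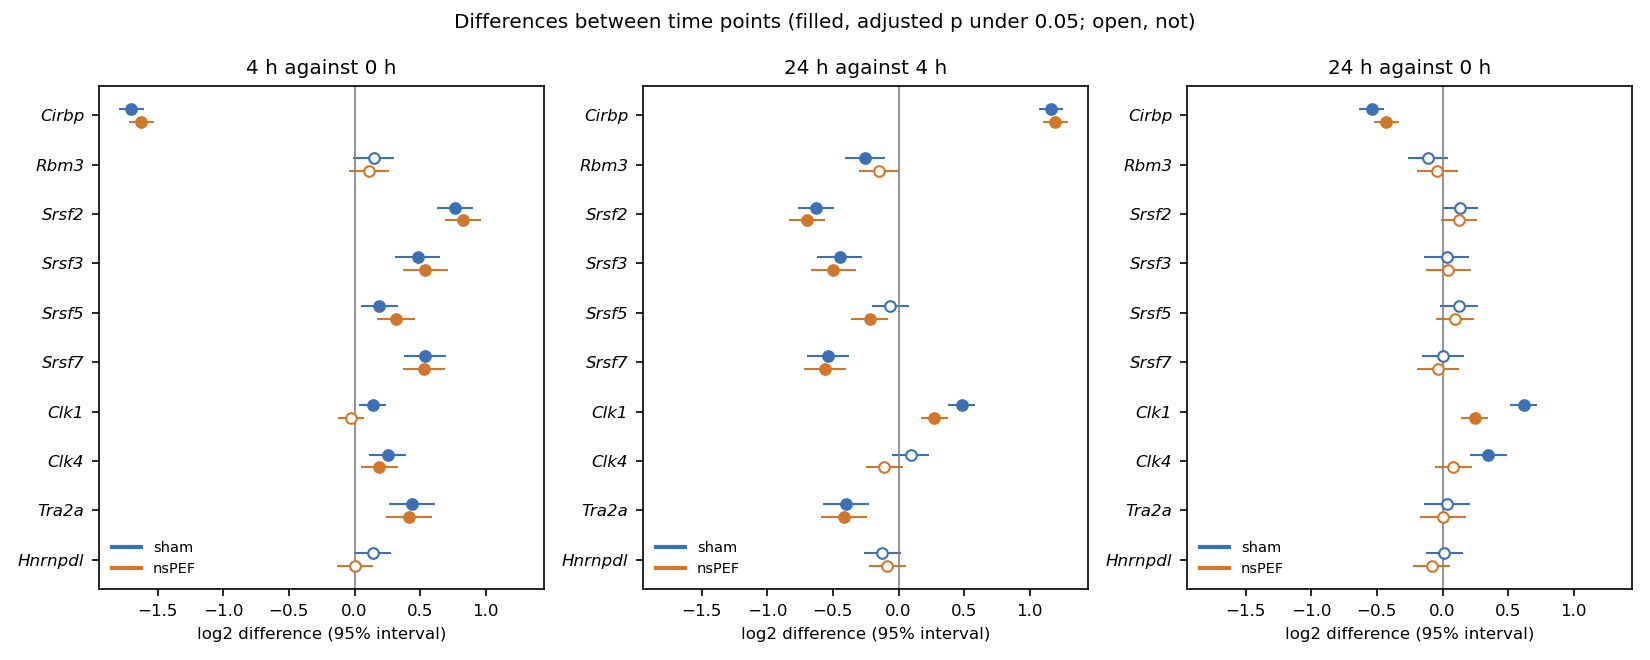
Log2 differences between time points (x axis) for the leading probe of each gene (y axis), with 95% intervals from limma, in sham (blue) and nsPEF (orange). Filled points had an adjusted p under 0.05. Cirbp lies at -1.70 and -1.62 in the 4 h panel, opposite to Srsf2, Srsf3, Srsf5, Srsf7, Clk4 and Tra2a, and in the panels with 24 h the Cirbp difference against 0 h, and most falls from 4 h in sham, change sign with spike-in scaling, where the median of all genes is 0.38 to 0.67 higher at 24 h.

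The kinase genes followed another course. Clk1 read 1.82, 1.85, 1.79 and 1.73 in S0, 1.90, 1.98, 1.97 and 1.88 in S4, and 2.42, 2.44, 2.43 and 2.36 in S24. In nsPEF it read 1.87, 1.93, 1.90 and 1.87 in E0, 1.87, 1.93, 1.88 and 1.77 in E4, and 2.25, 2.01, 2.14 and 2.15 in E24. The highest values were thus those of 24 h in both treatments, and the 4 S24 arrays lay above all other arrays. In sham the rise from 0 to 24 h was 1.53-fold (log2 difference 0.62, SE 0.049, adjusted p = 6.49e-09), and in nsPEF it was 1.19-fold (0.25, SE 0.049, adjusted p = 4.43e-04). At 4 h the sham difference of 0.14 was called (adjusted p = 0.020), without overlap of S0 and S4, and the nsPEF difference of -0.03 was not (adjusted p = 0.65). The small sham call at 4 h was lost without S0 replicate 4, S4 replicate 2 or S4 replicate 3, and with quantile normalization, spike-in scaling or the percentile over probes detected on all arrays.

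The second Clk1 probe rose by 0.45 from 0 to 24 h in sham (adjusted p = 4.12e-05), and in nsPEF it gave 0.01 (95% interval -0.14 to 0.15, adjusted p = 0.95). Clk4, the closest relative of Clk1, ranged from 2.13 to 2.33 in S0, from 2.39 to 2.57 in S4 and from 2.50 to 2.67 in S24. It rose by 0.25 at 4 h in sham (adjusted p = 2.90e-03) and by 0.19 in nsPEF (adjusted p = 0.020), and at 24 h it was 0.35 above 0 h in sham (adjusted p = 4.18e-04). In nsPEF the 24 h difference of 0.08 was not called (95% interval -0.06 to 0.22, adjusted p = 0.35). The call at 4 h in nsPEF was lost without E0 replicate 3, without replicate 1, 3 or 4 of all groups, and with quantile normalization (0.100, adjusted p = 0.25), the percentile over probes detected on all arrays (0.094, adjusted p = 0.27) or centring by array row and signal (0.11, adjusted p = 0.22). A dim second Clk4 probe gave 0.11 at 4 h in sham (adjusted p = 0.34) and rose by 0.31 in nsPEF (adjusted p = 8.66e-03).

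In counts, 7 of the 10 genes were higher and 1 lower at 4 h than at 0 h in sham, where 30.8% of all tested genes were higher and 34.6% lower. In nsPEF 6 were higher and 1 lower, against 34.8% and 33.0% of all genes. Of the 12252 genes well above background on all arrays, as these 10 were, 36.6% were higher and 38.5% lower in sham. In nsPEF these shares were 38.0% and 37.4%. In sham the 10 genes had a median difference of 0.22 at 4 h and all genes one of -0.04. In nsPEF these medians were 0.25 and 0.05. The median size of the difference without its sign was 0.35 for the 10 genes in sham and 0.48 for all genes. Without S4 replicate 4 the sham count was 8 higher and 1 lower. With the percentile taken over probes detected on all arrays it was 4 higher and 1 lower, since Srsf5 (0.07, adjusted p = 0.42), Clk1 (0.02, adjusted p = 0.75) and Clk4 (0.14, adjusted p = 0.11) were no longer called. With normexp background or array weights no call was lost, and Rbm3 and Hnrnpdl were called higher as well.

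From 4 to 24 h 2 genes were higher and 5 lower in sham, against 31.7% and 33.8% of all genes, and with spike-in scaling 7 were higher and 0 lower, against 66.6% and 8.83% of all genes on that scale. On the percentile scale without S4 replicate 4 this sham count was 2 higher and 6 lower. In nsPEF 2 were higher and 5 lower, against 31.7% and 31.7% of all genes, and 5 higher and 1 lower with spike-in scaling, against 52.3% and 13.9%. At 24 h against 0 h, Clk1 and Clk4 were higher and Cirbp lower in sham, which is 2 and 1 of 10 against 15.7% and 22.8% of all genes. In nsPEF Clk1 was higher and Cirbp lower, which is 1 and 1 of 10 against 24.3% and 21.5%. Without S4 replicate 4 the 24 h counts against 0 h were 3 higher and 1 lower in sham and 2 higher and 1 lower in nsPEF, with Srsf2 added in both. That array is in neither comparison, so the Srsf2 differences stayed the same and only the estimate of spread changed. The sham and nsPEF comparisons have no arrays in common, but they share the slides and the estimate of spread, so they are not independent. Comparisons within a treatment share the arrays of a time point.

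**Figure D4:**
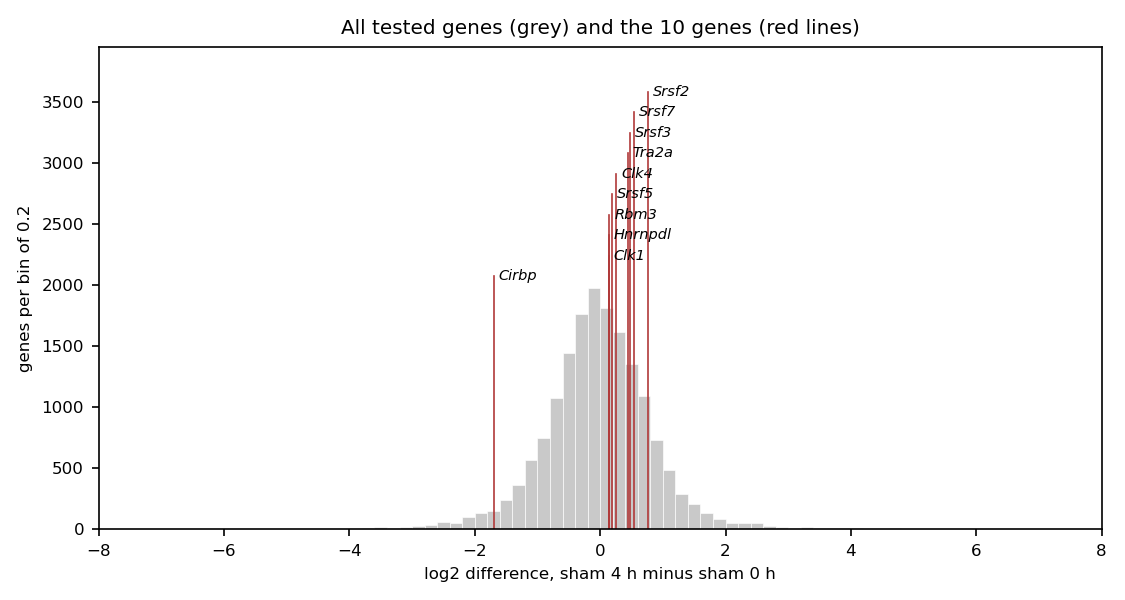
Number of tested genes per bin of 0.2 (y axis) by the log2 difference between sham at 4 h and sham at 0 h (x axis), with the 10 genes as red lines whose height has no meaning. Cirbp at -1.70 lies in the lower tail with 534 genes below it, and Srsf2 at 0.77, the highest of the 10, has 2348 genes above it.

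The comparison the study was designed for, nsPEF against sham, gave few differences in these genes. At 0 h limma called 0 of the 10 (1 at an unadjusted p under 0.05, 0 by the two-way analysis of variance), where 0.101% of all genes were called. At 4 h it called 0 (1 at an unadjusted p under 0.05, 0 by the analysis of variance) against 4.03% of all genes. Over all time points together it called 0 (1 at an unadjusted p under 0.05) against 10.1%, and the analysis of variance called 1, which was Clk1. At 0 h the differences of the 10 genes lay between -0.05 and 0.17, and at 4 h between -0.08 and 0.16. The 95% intervals of single genes reached from -0.22 to 0.31 at 0 h and from -0.22 to 0.30 at 4 h. For Cirbp the interval was -0.12 to 0.07 at 0 h, -0.05 to 0.14 at 4 h and -0.01 to 0.18 at 24 h. With spike-in scaling, where the median of all genes was 0.15 higher in nsPEF at 4 h, Cirbp (0.22, adjusted p = 0.038), Srsf5 (0.33, adjusted p = 0.013) and Clk4 (0.28, adjusted p = 0.034) were called at that time, as were 11.9% of all genes. On the percentile scale the genes with an unadjusted p under 0.05 were Clk4 at 0 h (0.17, adjusted p = 0.35) and Srsf5 at 4 h (0.16, adjusted p = 0.19). Of the other probes, Rbm3 probe A_55_P2766239 at 0 h (0.62, adjusted p = 0.27, 3 arrays in E0), the second Clk1 probe at 0 h (0.16, adjusted p = 0.42) and Rbm3 probe A_55_P2117525 at 4 h (0.16, adjusted p = 0.21) also had an unadjusted p under 0.05, and the first and second of these did not overlap between treatments.

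At 24 h Clk1 was the only called gene of the 10, lower in nsPEF, where 2.98% of all genes were lower. The 4 E24 arrays, from 2.01 to 2.25, lay below the 4 S24 arrays, from 2.36 to 2.44. The difference was -0.28 (95% interval -0.38 to -0.17, adjusted p = 4.15e-03), or 1.21-fold lower. The second Clk1 probe gave the same size, -0.28 (95% interval -0.43 to -0.13, adjusted p = 0.029), with 1.41 to 1.77 in E24 and 1.78 to 1.98 in S24. The difference itself uses only the 8 arrays of 24 h, and leaving out any other array changes only the estimate of spread. With any single array left out the call held in 24 of 24 fits. It was lost when replicate 2 or replicate 3 was left out of all groups (-0.22, adjusted p = 0.089, and -0.27, adjusted p = 0.078) and when only the 8 arrays of 24 h were fitted (adjusted p = 0.099). Beside it, 59.0% to 61.0% of probes were above background on S24 arrays and 52.4% to 57.2% on E24 arrays, and the part of that in the result was not tested. The difference was -0.29 when values were centred by place on the array and signal (adjusted p = 6.63e-03).

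The treatment difference of Clk1 on the percentile scale was 0.09 at 0 h, -0.07 at 4 h (0.10 with spike-in scaling) and -0.28 at 24 h, and at 0 h the S0 and E0 arrays did not overlap. The interaction of treatment and time was called for Clk1 (adjusted p = 0.044), where 0.428% of all genes were called, and for the second Clk1 probe it was not (adjusted p = 0.078). Of the 24 fits without a single array, the call was kept in 6, those without S0 replicate 2, S4 replicate 4, E4 replicate 2, E4 replicate 4, S24 replicate 4 or E24 replicate 1. It was lost in all 4 fits without a replicate number and with normexp background or no filter, and the adjusted p over all fits with arrays left out was 0.013 to 0.38. For Clk4 the interaction had an unadjusted p of 0.029 and an adjusted p of 0.25. For the other genes of the 10 the adjusted p of the interaction was between 0.53 (Cirbp) and 0.98 (Tra2a).

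**Figure D5:**
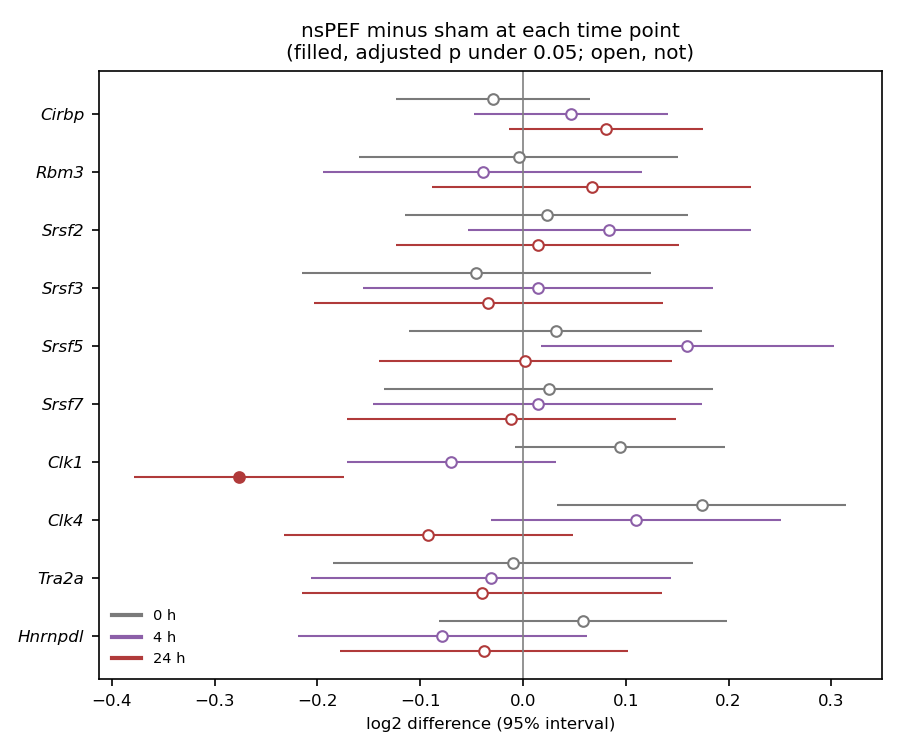
Log2 difference of nsPEF minus sham (x axis) for the leading probe of each gene (y axis) at 0 h (grey), 4 h (violet) and 24 h (red), with 95% intervals from limma. Filled points had an adjusted p under 0.05, which holds for Clk1 at 24 h (-0.28). All other points lie between -0.09 and 0.17.

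Within groups the genes also varied from array to array. Deviations from the group mean of Srsf2, Srsf3, Srsf7 and Tra2a went together over the 24 arrays, with Pearson's r between 0.69 and 0.88 for their 6 pairs. That of Rbm3 with Srsf7 was 0.94, the highest of the 45 pairs of members, and that of Srsf5 with Hnrnpdl was -0.67, the lowest. These values share the array, its scaling factor and its brightness, and S4 replicate 4 was the lowest of its group for Srsf2, Srsf3, Srsf7, Tra2a, Rbm3 and Hnrnpdl.

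Among 12242 other genes well above background on all arrays, those with a pattern most like Cirbp over the 24 arrays were Tatdn3 (r = 0.995), Scx (0.995), Cdc25c (0.994), Syne4 (0.993) and Serhl (0.992). All of them were lowest at 4 h, which follows from their choice by likeness to Cirbp. Within groups the r of the same genes with Cirbp was 0.60, 0.81, 0.44, 0.29 and 0.38. For Rbm3 they were Gtf2h5 (0.901), Zfp422 (0.901), Psmc6 (0.901), Arf1 (0.899) and Polr2m (0.896), and within groups their r was between 0.84 and 0.88. The r of these genes with Rbm3 within groups was thus close to that over all arrays.

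Related genes were read from 6 lists, on the percentile scale, and their counts at 4 h in sham stand against 30.8% of all genes higher and 34.6% lower. With spike-in scaling the median of all genes at 24 h against 0 h in sham was 0.67. Of the other SR protein genes, 6 of 7 tested were higher and 0 lower at 4 h in sham, with a median difference of 0.35. Srsf1, the founding SR protein, rose by 0.98 (adjusted p = 3.65e-10), Srsf6 by 0.84 (adjusted p = 2.73e-10) and Srsf10 by 0.71 (adjusted p = 1.68e-08). At 24 h Srsf1 was 0.42 above 0 h in sham (adjusted p = 1.56e-04, 1.12 with spike-in scaling), while Srsf6 (-0.0060, adjusted p = 0.96) and Srsf10 (0.05, adjusted p = 0.59) were not called, and were at 0.69 and 0.75 with spike-in scaling.

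Of 9 genes for kinases that act on SR proteins, 6 were higher and 3 lower at 4 h in sham. Srpk1 rose by 0.94 (adjusted p = 1.60e-13) and its paralogue Srpk2 fell by 0.85 (adjusted p = 1.70e-12), while Prpf4b, a kinase of the spliceosome, rose by 0.89 (adjusted p = 4.52e-10). On the percentile scale Srpk2 was 0.59 below 0 h at 24 h in sham (adjusted p = 4.30e-09), which turned to 0.11 with spike-in scaling (adjusted p = 0.17). The 2 SRPK genes thus moved in opposite directions.

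Of 26 hnRNP genes, 13 were higher and 3 lower at 4 h in sham, with a median difference of 0.18. Ptbp3, a polypyrimidine tract binding protein, rose by 0.96 (adjusted p = 2.45e-08) and Hnrnpab by 0.70 (adjusted p = 5.86e-08), and Hnrnpul1 fell by 0.71 (adjusted p = 2.30e-07). Of 30 SR-related and other splicing regulators, 18 were higher and 3 lower, with a median of 0.36. Mbnl2, a muscleblind protein that controls alternative exons, rose by 1.41 (adjusted p = 1.31e-15), Pnn by 1.12 (adjusted p = 1.33e-12) and Celf1 by 1.07 (adjusted p = 1.26e-13).

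Of 28 genes of the spliceosome core, 13 were higher and 5 lower, with a median of 0.15. Prpf3 rose by 0.96 (adjusted p = 2.97e-13), Sf3b4 by 0.84 (adjusted p = 1.73e-10) and Prpf4 by 0.72 (adjusted p = 1.82e-08). The list of cold-shock domain and other cold-response genes was split, with 3 higher and 3 lower of 9 tested and a median of 0.06. The cold-shock domain protein Ybx3 rose by 0.70 (adjusted p = 8.56e-10), Carhsp1 of the same family fell by 0.51 (adjusted p = 5.72e-08) and Trpm8, a cold-sensing channel, fell by 0.71 (SE 0.18, adjusted p = 2.11e-03) and stood 0.85 above 0 h at 24 h (adjusted p = 9.66e-04, 1.54 with spike-in scaling).

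Over the 6 lists, 59 of 109 tested genes were higher and 17 lower at 4 h in sham, and 64 higher and 19 lower in nsPEF, where 34.8% of all genes were higher and 33.0% lower. From 4 to 24 h in sham 13 were higher and 57 lower on the percentile scale, against 31.7% and 33.8% of all genes. With spike-in scaling 66.6% of all genes were higher and 8.83% lower, and the counts of the lists on that scale are not given here. Of the named genes, Srsf1 then stood at 0.09 (adjusted p = 0.32) and Mbnl2 at -0.48 (adjusted p = 8.10e-06). Between nsPEF and sham, 0 of the 109 were called at 0 h (7 at an unadjusted p under 0.05), 2 at 4 h and 4 at 24 h, against 4.03% and 5.74% of all genes. At 24 h 1 of these was higher. That gene was Sf3b4 (0.25, adjusted p = 0.025), while the interaction was called for 0 of the 109 (12 at an unadjusted p under 0.05).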

How the data were processed

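Cy3-labelled RNA of 24 samples was hybridized by the authors to single-colour Agilent mouse arrays and read with Agilent Feature Extraction 12.0 (submitters' processing notes). The deposited scanner files hold spot intensity in arbitrary units, background-subtracted and detrended by that software and not scaled between arrays. The deposited series table holds log2 values shifted by the authors to the 75th percentile and centred per probe, and was used as an alternative. Here, unmarked spots were averaged per probe (56605 probes) and each array's 75th percentile was subtracted on the log2 scale. Probes well above background on 2 of 4 arrays of any group were tested (37684). A mean per group was fitted to all 24 arrays with limma 3.58.1 (R 4.3.3), in place of the two-way analysis of variance of the study's methods, which was an alternative. In data simulated for 4 h against 0 h in sham with 35691 probes, 149 of 200 probes changed by 1 were recovered, with 11 false calls. Precision is limited by 4 arrays per group. Genes were named as all members with all probes, the 5 genes most like Cirbp and Rbm3, and up to 3 genes per list with the largest called difference at 4 h in sham. Members and lists were chosen with earlier results of these data known. The alternatives are described in the closing section, and columns without a sample numbered 0. Protein sequences were not analysed here.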

Additional observations from a re-analysis of the deposited data

Results flagged for a closer look

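In groups of 4 arrays, 7 of the 60 combinations of gene and group had 1 array apart from the others by Dixon's criterion, which by chance alone would mark about 1 in 20. In sham these were Tra2a in S0 replicate 3 (5.30, the others from 5.55 to 5.58), Hnrnpdl in the same array (5.30, the others from 5.44 to 5.47), Srsf2 in S4 replicate 4 (5.23, the others from 5.56 to 5.57) and Tra2a in S24 replicate 4 (5.45, the others from 5.56 to 5.57). In nsPEF they were Srsf7 in E0 replicate 3 (5.28, the others from 5.32 to 5.33), Tra2a in E0 replicate 2 (5.35, the others from 5.53 to 5.55) and Clk4 in E4 replicate 2 (2.50, the others from 2.62 to 2.63). In each case the separate array was the lowest of its group. The interaction of treatment and time was called for Clk1 (adjusted p = 0.044), but not for its second probe (0.078), and the call was lost in 18 of 24 fits without a single array, in 4 of 4 without a replicate number and with normexp background or no filter.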

How the results depend on the processing

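Of 469 repeats of the 36 called results (a gene in a comparison) under other settings, 436 kept their direction and call. Of 100 signed results, called or not, spike-in scaling changed the sign of 33 and quantile normalization of 16, and 17 and 1 of these were called on at least 1 of the scales. With spike-in scaling, 24 h against 0 h gave 0.16 for Cirbp and 0.58 for Rbm3 in sham, and 0.030 for Cirbp, 0.42 for Rbm3, 0.43 for Srsf7 and 0.38 for Hnrnpdl in nsPEF. The 24 h against 4 h values were 0.40 for Rbm3, 0.021 for Srsf2, 0.20 for Srsf3, 0.59 for Srsf5, 0.12 for Srsf7, 0.25 for Tra2a and 0.53 for Hnrnpdl in sham, and 0.24 for Rbm3, 0.17 for Srsf5, 0.28 for Clk4 and 0.31 for Hnrnpdl in nsPEF. Quantile normalization gave -0.15 for Hnrnpdl at 4 h against 0 h in nsPEF. Under that spike-in scaling the numbers of called genes of the 10 were 3 for nsPEF against sham at 4 h, 1 over all time points, 10 for 24 h against 0 h in sham, 9 in nsPEF and 2 for the interaction, where 11.9%, 8.66%, 79.5%, 71.1% and 5.58% of all genes were called. For nsPEF against sham over all time points 1 gene was called with marked spots kept, no filter, the analysis of variance, the deposited values or array weights. For 4 h against 0 h in sham 5 were called with the percentile over probes detected on all arrays. With normexp background or array weights no call was lost there, and Rbm3 and Hnrnpdl were called as well. Quantile normalization lost Srsf5, Clk1 and Clk4 and added Rbm3, spike-in scaling lost Clk1, and centring by array row and signal lost Srsf5. For 24 h against 0 h in sham 5 were called with quantile normalization, normexp background or centring by array row and signal, and in nsPEF 1 with the mean of a gene's probes. For the interaction 0 were called with normexp background or no filter, and for nsPEF against sham at 24 h 0 with only the arrays of that time. The causes were not tested.

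With arrays left out, the count was 0 to 1 for nsPEF against sham at 24 h, over all time points and for the interaction, and 6 to 9 for 4 h against 0 h in sham. With a replicate block 8 of the 10 genes were called at 4 h against 0 h in sham, 7 at 24 h against 4 h and 1 at 24 h between treatments, and no call of the 10 genes changed. Deviations of same-numbered sham and nsPEF arrays had r from -0.05 to 0.10 over 12 pairs. The same number was the best match in 7, more often than an even spread over the 4 numbers would give. The paper states that the tests of a biological replicate used the same cell suspension. These low r values cannot exclude pairing. The labels name no pairs, so the main fit used none, and the replicate block is the fit that does. Over all genes, the interaction gave 72 calls and between 4 (normexp) and 1181 (array weights) otherwise. At 24 h nsPEF against sham gave 967 calls, 12 with the arrays of that time and 3425 with array weights, at 4 h 679, with 148 and 2007 (normexp) as extremes, and at 0 h 17, with 0 and 89 (spike-in). Over all times it gave 1694, with 849 (centring) and 2751 (deposited values). With 4 arrays per group the standard errors of the 10 genes were 0.045 to 0.084, which limits the treatment differences that could be detected.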
